A study of Mus musculus with 24 samples.

Results

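The genes described here are 8 genes of the FoxO and insulin receptor feedback, namely Irs1, Irs2, Insr, Igf1r, Foxo1, Foxo3, Ccng2 and Txnip. They were chosen by name, as the rows of the count tables that carry these symbols. Of the 8, 7 had a row in each of the 8 count tables, and Foxo1 was not analysed here. They stand among 12176 transcripts listed in every RNA-seq table and 10568 listed in every ribosome profiling table, and each of the 7 passed the filter on low counts in each comparison.

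The cells were N2a, a mouse neuroblastoma line, transfected either with the empty pSpCas9(BB)-Puro vector (ctrl) or with vectors for each of 3 gRNAs against eIF4E3 exons (KO). Transfection and puromycin selection were repeated on the surviving cells, so that KO is a selected population, and no single clone was named. Each genotype received DMSO or 250 nM Torin1, and the treatment lasted 2 h. RNA-seq gave 3 libraries per condition, and ribosome profiling gave 3 per condition except for ctrl in DMSO, where replicates 1 and 3 were used. The replicates were different passages of the cells.

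Insulin and IGF1 bind the receptor tyrosine kinases encoded by Insr and Igf1r. The active receptors phosphorylate the adaptors IRS1 and IRS2, which recruit PI3K and so activate AKT. AKT phosphorylates the FoxO transcription factors and thereby keeps them in the cytoplasm. When AKT signalling falls, FoxO proteins enter the nucleus, where they are known to activate receptor and adaptor genes and thus raise the sensitivity of the pathway. Ccng2, which encodes the growth-restraining cyclin G2, is a well known FoxO target. Txnip encodes an alpha-arrestin that binds thioredoxin and limits glucose uptake, and is transcribed by MondoA through carbohydrate response elements as well as by FoxO factors. Torin1 inhibits the catalytic site of mTOR, which blocks both mTOR complexes, one of which phosphorylates AKT.

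The promoters are shown because most of these genes moved at the mRNA level. RefSeq promoters, 250 bases before the start on GRCm38.p6, were found for 6 of the 7 genes, and Insr had no entry. The search on both strands used GTAAACA for the FoxO consensus, CAAAACA for the insulin response element, CACGTG for the E-box and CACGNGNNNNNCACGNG for the carbohydrate response element. Capitals mark the FoxO, insulin and carbohydrate response elements. CAAAACA on the minus strand reads TGTTTTG.
Txnip, chr3:96557826-96557898, plus strand: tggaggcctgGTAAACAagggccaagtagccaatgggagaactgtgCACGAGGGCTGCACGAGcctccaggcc
Irs2, chr8:11008950-11008976, minus strand: agtcacgtgtTGTTTTGctcttagttc
Irs1, chr1:82291455-82291560, minus strand: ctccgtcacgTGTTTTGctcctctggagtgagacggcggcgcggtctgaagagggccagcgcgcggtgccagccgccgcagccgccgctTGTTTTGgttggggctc
Ccng2, chr5:93267547-93267572, plus strand: gtcgcagactCAAAACAaaaacaagg

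Txnip was the gene with the FoxO consensus, whose first base lay 121 bases before the start, and 3.17% of 32851 promoters held these letters. Txnip also held the carbohydrate response element, beginning 85 bases before the start, which 0.0457% of the promoters held. Irs1 held the insulin response element at 111 and at 32 bases before the start, Irs2 at 37 and Ccng2 at 16, and 5.56% of the promoters held it. The E-box stood at 115 bases before the start in Irs1, where it shared bases with the insulin response element, and at 44 in Irs2, and 6.02% of the promoters held it. None of these letters was in the windows of Igf1r and Foxo3. The RefSeq start of Ccng2, at base 93267573, lies downstream of the start of the transcript that was counted, at base 93267257, and so does its window. The 5′ transcript leader (5′ TL) of this transcript has 541 nt. The other 3 windows lie upstream of the counted transcripts. A match of letters is a description of the sequence and says nothing of whether a factor was bound.

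The RNA-seq libraries held 17047795 to 28910907 counts on coding sequences (CDS) and the ribosome profiling libraries 669010 to 5284909, with the lowest total in ctrl DMSO replicate 3. Levels are given as CPM, the counts of a gene relative to the total of its library, scaled by TMM, an edgeR method that sets a common scale between libraries. Eif4e3, the targeted gene, was at 12.0 to 18.2 CPM of mRNA in the 6 ctrl libraries and at 2.88 to 5.04 CPM in the 6 KO libraries, and its footprints were at 11.6 to 22.1 CPM and 2.29 to 6.61 CPM. Of the 14 sympathoadrenal markers 13 were listed for RNA-seq, at a summed 3621 to 4726 CPM, and their range was lower with Torin1 (3621 to 3900 CPM) than with DMSO (3909 to 4726 CPM). Their footprints were lower as well (4390 to 5437 CPM against 5466 to 7976 CPM), and the part of this in the results below was not tested. The marker lists of fibroblasts, glia, leukocytes and insulin-responsive tissue each had at most 3 genes listed and summed to at most 17.3 CPM of mRNA. Among the ctrl DMSO libraries of RNA-seq, replicate 3 was the highest for Irs1, Irs2, Insr, Igf1r and Foxo3, and calls that change without it are given both ways. In bulk samples, fewer cells and less RNA per cell cannot be told apart.

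Levels of different genes were compared per length, as CPM divided by the CDS length in kilobases (RPKM). In ctrl cells with DMSO, Irs2 mRNA was the most abundant at 41.1 ± 12.2 RPKM (SD, n = 3). It was followed by Txnip at 9.62 ± 1.06, Insr at 9.52 ± 3.50, Ccng2 at 7.12 ± 2.03, Foxo3 at 6.90 ± 2.37, Igf1r at 5.60 ± 2.05 and Irs1 at 3.19 ± 1.30 RPKM (SD, n = 3). From Txnip to Igf1r, each gap between neighbours in this order was smaller than the larger of their SDs. With Torin1, Ccng2 stood second in ctrl cells at 31.1 ± 1.30 RPKM and Txnip next at 27.6 ± 3.31 RPKM (SD, n = 3), and their libraries overlapped.

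In KO cells Irs2 mRNA led as well, at 52.5 ± 10.0 RPKM with DMSO and 99.1 ± 7.52 RPKM with Torin1 (SD, n = 3). Txnip at 37.4 ± 6.30 and Ccng2 at 34.9 ± 1.99 RPKM (SD, n = 3) followed it with Torin1, a gap within the SD of Txnip.

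For footprints, Irs2 led with DMSO in both genotypes, at 32.6 ± 4.21 RPKM in ctrl (SD, n = 2) and 29.5 ± 2.02 RPKM in KO cells (SD, n = 3). Insr and Txnip came next, at 21.0 ± 2.08 and 17.2 ± 3.07 RPKM in ctrl (SD, n = 2) and at 21.6 ± 1.75 and 19.0 ± 0.367 RPKM in KO cells (SD, n = 3). With Torin1, Txnip at 75.5 ± 4.37 and Irs2 at 72.5 ± 5.84 RPKM did not differ beyond their SDs in ctrl cells (n = 3). In KO cells with Torin1, Txnip at 119 ± 7.84 RPKM stood above Irs2 at 76.2 ± 1.83 RPKM (SD, n = 3). Irs1 was the lowest of the 7 genes in 3 of the 4 conditions, and in ctrl cells with DMSO its mean of 4.19 RPKM lay beside that of Ccng2, 4.17 RPKM, for which 1 of the 2 libraries had no count.

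**Figure D1:**
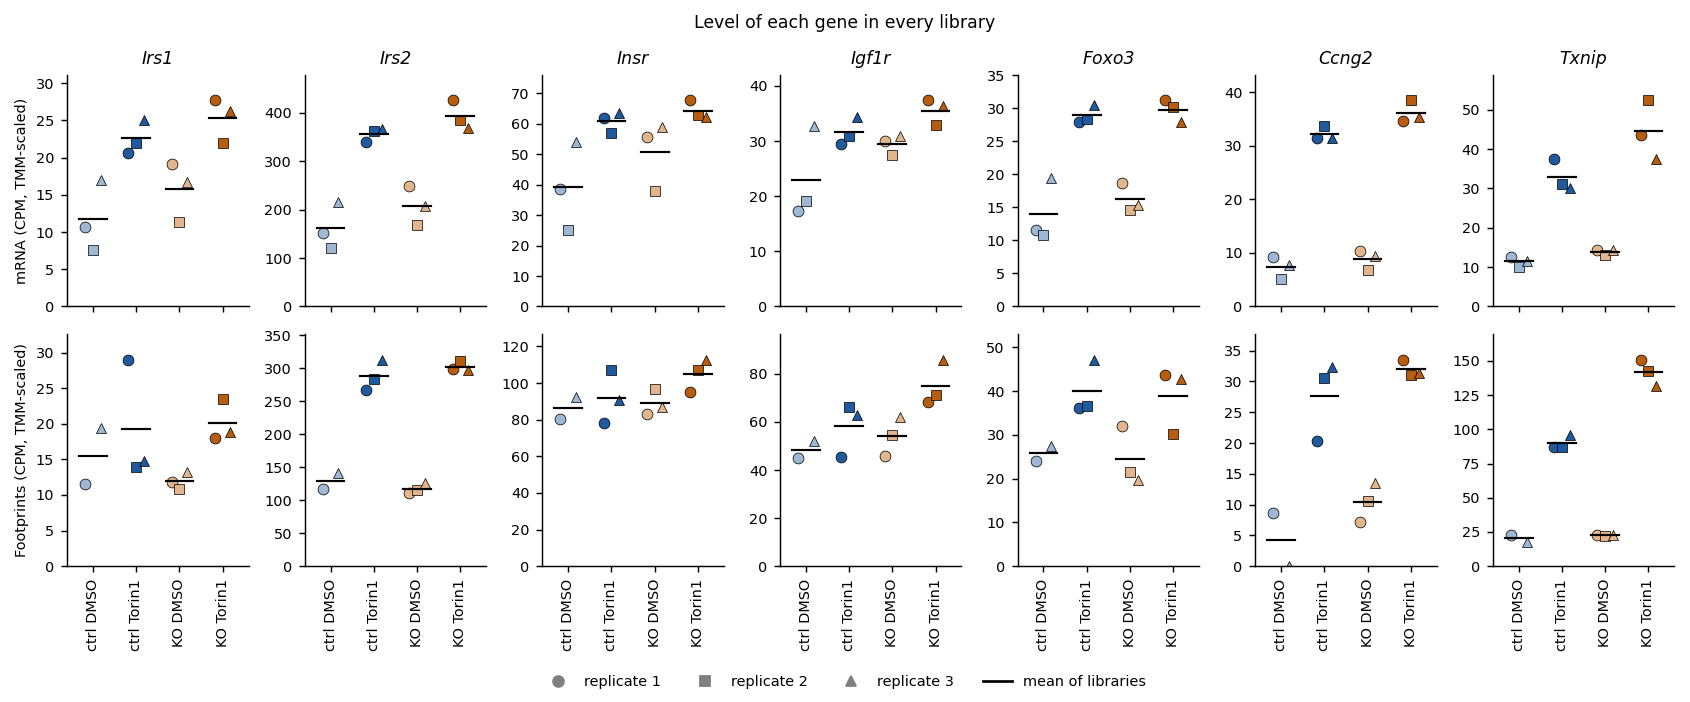
CPM of mRNA (top row) and of footprints (bottom row) on linear axes from 0 for the 7 genes in the 4 conditions; each symbol is a library, its shape gives the replicate and the line is the mean. Every Txnip library with Torin1 lies above every Txnip library with DMSO in both assays, and the lowest Ccng2 point is the ctrl DMSO library with 0 footprints.

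The first question was whether Torin1 changed the mRNA of these genes. In ctrl cells 4 of the 7 transcripts rose, in KO cells 5, and none fell. These were Irs2, Foxo3, Ccng2 and Txnip in both genotypes and Irs1 in KO cells. Tested with the quasi-likelihood method of edgeR, with p-values adjusted by Benjamini-Hochberg over all transcripts and a threshold of 0.05, 2.73% of 10958 transcripts passed in ctrl cells and 9.97% of 11004 in KO cells. The median log2 fold change of the 7 genes was 1.06 in ctrl and 0.88 in KO cells, beside 0.0036 and -0.0045 over all transcripts tested. In an alternative fit with a replicate block, which matches same-numbered libraries, the 7 genes passed in each genotype. All transcripts called in that fit were 1328 in ctrl and 1797 in KO cells.

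Irs2, the adaptor that links the receptors to PI3K in many tissues, had mRNA levels of 152, 121 and 216 CPM in ctrl cells with DMSO and of 339, 363 and 367 CPM with Torin1. The groups did not overlap. The log2 fold change was 1.13 (SE 0.17, adjusted p = 0.00418), a 2.19-fold rise, and without ctrl DMSO replicate 1 it was 1.09 and no longer passed (adjusted p = 0.0637). In KO cells Irs2 went from 248, 169 and 208 CPM to 426, 384 and 368 CPM, with a log2 fold change of 0.92 (SE 0.12, adjusted p = 4.84e-04).

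Irs1, the sister adaptor, was at 10.7, 7.61 and 17.0 CPM in ctrl cells with DMSO and at 20.6, 22.0 and 25.1 CPM with Torin1. The groups were separate, but the log2 fold change of 0.94 (SE 0.24) did not pass (adjusted p = 0.0594). The wider spread was within DMSO, where replicate 3 was the highest, and DESeq2 (0.94, adjusted p = 0.0031) and the fit of the 4 conditions together (0.94, adjusted p = 0.0236) called the rise. In KO cells Irs1 went from 19.1, 11.4 and 16.7 CPM to 27.7, 22.0 and 26.2 CPM and passed, with a log2 fold change of 0.68 (SE 0.16, adjusted p = 0.0231). It no longer passed without KO Torin1 replicate 1 (adjusted p = 0.0935) or replicate 3 (adjusted p = 0.0807), or with the 4 conditions in one fit (adjusted p = 0.114).

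The receptors had smaller values. Insr was at 38.5, 25.1 and 53.9 CPM in ctrl cells with DMSO and at 61.9, 56.9 and 63.7 CPM with Torin1, with a log2 fold change of 0.64 (SE 0.22, adjusted p = 0.128). In KO cells it was at 55.8, 38.1 and 58.8 CPM against 67.7, 62.8 and 62.3 CPM, with a log2 fold change of 0.34 (SE 0.13, adjusted p = 0.125), which passed without KO DMSO replicate 3 (0.46, adjusted p = 0.047). For Insr the groups did not overlap in either genotype. How many of all transcripts were separated in this way was not counted in any comparison. Igf1r was at 17.3, 19.0 and 32.7 CPM in ctrl cells with DMSO and at 29.4, 31.0 and 34.3 CPM with Torin1, and these groups overlapped through DMSO replicate 3. Its log2 fold change was 0.46 (SE 0.21, adjusted p = 0.215) in ctrl cells and 0.27 (SE 0.09, adjusted p = 0.0777) in KO cells.

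Foxo3, a FoxO transcription factor, went from 11.6, 10.7 and 19.4 CPM to 27.8, 28.4 and 30.5 CPM in ctrl cells. The log2 fold change was 1.06 (SE 0.20, adjusted p = 0.0168). The call was lost without ctrl DMSO replicate 1 (adjusted p = 0.0958), ctrl Torin1 replicate 1 (adjusted p = 0.0565) or ctrl Torin1 replicate 2 (adjusted p = 0.0663). In KO cells Foxo3 went from 18.6, 14.6 and 15.3 CPM to 31.2, 30.2 and 27.9 CPM, a log2 fold change of 0.88 (SE 0.11, adjusted p = 4.84e-04).

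Ccng2 had the largest change of the 7 genes in both genotypes. Its mRNA stood at 9.25, 5.10 and 7.75 CPM in ctrl cells with DMSO and at 31.4, 33.7 and 31.5 CPM with Torin1, a 4.36-fold rise (95% interval 3.25 to 5.83, adjusted p = 7.87e-05). In KO cells it went from 10.4, 6.79 and 9.47 CPM to 34.6, 38.5 and 35.4 CPM, a 4.05-fold rise (95% interval 3.29 to 4.98, adjusted p = 3.44e-06). Txnip was next, from 12.7, 10.2 and 11.5 CPM to 37.4, 31.1 and 30.2 CPM in ctrl cells, a 2.87-fold rise (adjusted p = 1.33e-04). In KO cells Txnip went from 14.2, 13.2 and 14.4 CPM to 43.7, 52.4 and 37.5 CPM, a 3.20-fold rise (adjusted p = 6.26e-06). For both genes the groups lay far apart in each genotype, and the calls held in each of the 13 fits made for each genotype.

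The number of calls in ctrl cells turned on single DMSO libraries. Without ctrl DMSO replicate 3 the 7 transcripts passed, among 1465 of all transcripts, with log2 fold changes of 1.29 for Irs1 (adjusted p = 0.00635), 0.93 for Insr (adjusted p = 0.0179) and 0.80 for Igf1r (adjusted p = 0.0122). Without ctrl DMSO replicate 1, 2 passed, Ccng2 and Txnip.

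**Figure D2:**
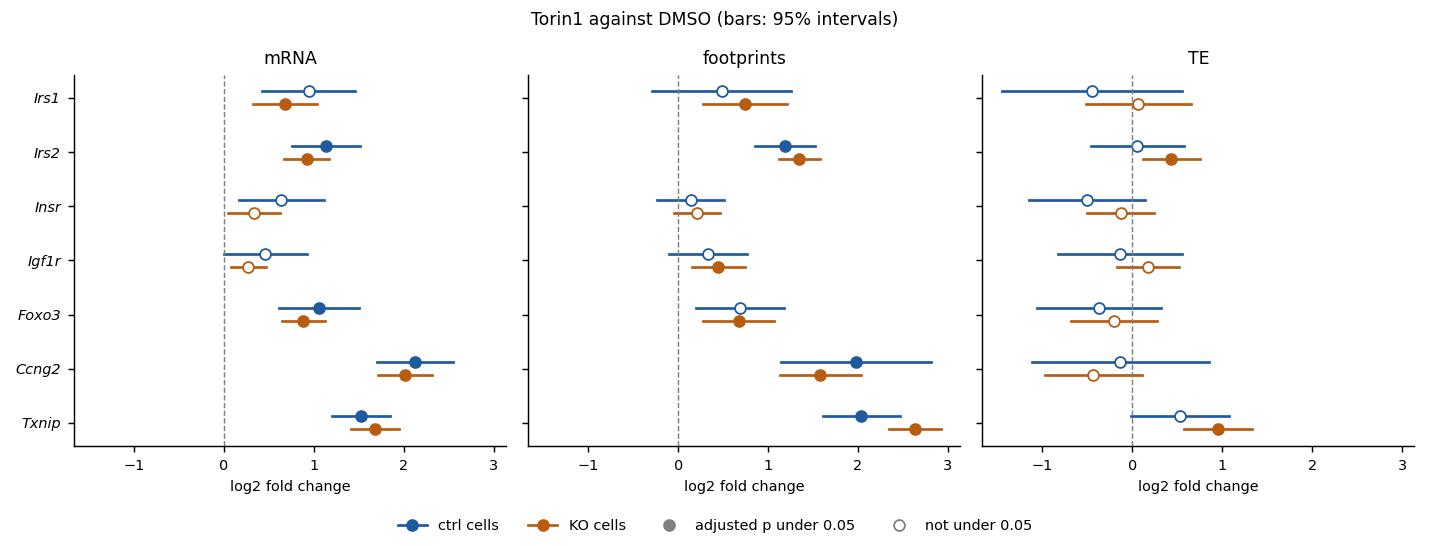
Log2 fold change of Torin1 against DMSO for mRNA, footprints and TE in ctrl and KO cells, with 95% intervals from edgeR; filled circles have an adjusted p under 0.05. Ccng2 and Txnip are farthest to the right for mRNA and footprints, and for TE the filled circles are Irs2 and Txnip in KO cells.

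The second question was whether ribosome occupancy changed as well. Footprints are scaled within their assay, so that a rise is relative to the other transcripts. A change of total translation would not be seen, and the study reports fewer heavy polysomes with Torin1 in both genotypes. Of the 7 transcripts, 3 rose in footprints in ctrl cells, Irs2, Ccng2 and Txnip. In KO cells 6 rose, these 3 with Irs1, Igf1r and Foxo3, and none fell in either genotype. The footprint calls covered 15.6% of 10693 transcripts in ctrl cells and 40.6% of 10822 in KO cells, and among all transcripts more were lower than higher (1062 against 608, and 2391 against 1999). The median log2 fold change of the 7 genes was 0.69 in ctrl and 0.74 in KO cells, beside 0.017 and 0.0158 over all transcripts. The number of calls in ctrl cells rests on 2 DMSO libraries, 1 of them shallow.

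Txnip footprints were at 23.0 and 17.8 CPM in the ctrl DMSO libraries and at 86.8, 87.0 and 95.9 CPM with Torin1. In KO cells they were at 22.9, 22.2 and 22.9 CPM with DMSO and at 151, 143 and 132 CPM with Torin1. The 3 KO libraries with Torin1 were thus above the 3 ctrl libraries with Torin1, whereas the DMSO libraries of the genotypes overlapped. The rise was 4.10-fold in ctrl (95% interval 3.05 to 5.51, adjusted p = 7.03e-07) and 6.19-fold in KO cells (95% interval 5.07 to 7.56, adjusted p = 1.87e-16).

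Irs2 footprints were at 117 and 141 CPM in ctrl cells with DMSO and at 266, 284 and 312 CPM with Torin1, a 2.28-fold rise (adjusted p = 2.60e-05). In KO cells they went from 111, 115 and 126 CPM to 299, 311 and 297 CPM, a 2.55-fold rise (adjusted p = 1.20e-11). These are narrow groups, and those with DMSO and with Torin1 were clearly separate.

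Ccng2 footprints were at 8.63 and 0 CPM in the ctrl DMSO libraries, on 36 and 0 counts, and at 20.3, 30.5 and 32.4 CPM with Torin1. At the depth of ctrl DMSO replicate 3, a count of 0 allows a level of up to 4.87 CPM, taking 3 counts in that library as the limit and counting error alone. The fitted log2 fold change was 1.98 (SE 0.40, adjusted p = 0.00208), and DESeq2 gave 2.43 with no call (adjusted p = 0.0917). Without ctrl DMSO replicate 1 the DMSO arm held no Ccng2 count, so that the fitted value of that fit has no interpretation. In KO cells Ccng2 footprints went from 7.11, 10.7 and 13.5 CPM to 33.5, 31.1 and 31.4 CPM, a 2.99-fold rise (95% interval 2.19 to 4.08, adjusted p = 6.37e-07).

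Foxo3 footprints were at 24.0 and 27.6 CPM in ctrl cells with DMSO and at 36.2, 36.6 and 47.1 CPM with Torin1, a log2 fold change of 0.69 (SE 0.23, adjusted p = 0.0535). This value stood near the threshold and passed without ctrl DMSO replicate 3 (0.74, adjusted p = 0.0363). In KO cells Foxo3 went from 32.0, 21.5 and 19.8 CPM to 43.6, 30.2 and 42.9 CPM, with a log2 fold change of 0.67 (SE 0.19, adjusted p = 0.00616). The highest DMSO library exceeded the lowest Torin1 library there, and the call was lost without KO Torin1 replicate 1 (adjusted p = 0.0534).

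Irs1 footprints rested on 12 to 52 counts per library. They were at 11.5 and 19.5 CPM in ctrl cells with DMSO and at 28.9, 13.9 and 14.8 CPM with Torin1, overlapping groups with a log2 fold change of 0.48 (SE 0.37, adjusted p = 0.409). In KO cells they went from 11.9, 10.9 and 13.2 CPM to 18.1, 23.5 and 18.9 CPM and passed (0.74, SE 0.23, adjusted p = 0.0104). This call was lost without KO DMSO replicate 2 (adjusted p = 0.0572) or KO Torin1 replicate 2 (adjusted p = 0.0702).

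Of the receptors, Igf1r passed in KO cells, where its footprints went from 45.8, 54.6 and 61.8 CPM to 68.3, 71.3 and 85.7 CPM (log2 fold change 0.44, SE 0.14, adjusted p = 0.0142). The call was lost without KO DMSO replicate 1 (adjusted p = 0.0623) or KO Torin1 replicate 3 (adjusted p = 0.0993). In ctrl cells Igf1r was at 44.8 and 51.9 CPM against 45.6, 66.2 and 63.0 CPM, with a log2 fold change of 0.33 (SE 0.21, adjusted p = 0.301). Insr was at 80.3 and 92.4 CPM in ctrl cells with DMSO and at 78.2, 107 and 90.8 CPM with Torin1 (log2 fold change 0.14, 95% interval -0.23 to 0.51, adjusted p = 0.645). In KO cells Insr was at 83.0, 97.0 and 87.2 CPM against 95.2, 107 and 113 CPM (0.21, 95% interval -0.05 to 0.47, adjusted p = 0.192). The Insr groups overlapped in both genotypes.

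The third question was whether footprints changed beyond the mRNA, which is the change of translational efficiency (TE), the ratio of footprints to mRNA. Most of the 7 genes showed no detectable change of TE with Torin1, and the 2 that rose, both in KO cells, were Txnip and Irs2. As for footprints, a change of TE is relative to the other transcripts. In ctrl cells edgeR called 0 of the 7 genes, 0 had an unadjusted p under 0.05, and DESeq2 also called 0. Such an unadjusted p was found for 1707 of the 10432 transcripts tested there. Over all transcripts, 4.68% of 10432 were called for TE in ctrl cells and 28.4% of 10535 in KO cells, most of them lower (448 of 488 and 1871 of 2990).

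The ratio of the mean footprint CPM to the mean mRNA CPM of Txnip was 1.78 in ctrl cells with DMSO and 2.73 with Torin1, and 1.63 and 3.19 in KO cells. The log2 change of TE was 0.95 in KO cells (95% interval 0.57 to 1.33, adjusted p = 3.30e-04), and it passed in each of the 19 fits. In ctrl cells it was 0.53 (95% interval -0.02 to 1.07, adjusted p = 0.326). For Irs2 the ratio went from 0.563 to 0.769 in KO cells, a log2 change of 0.43 (SE 0.15, adjusted p = 0.0379), and from 0.793 to 0.806 in ctrl cells (0.06, SE 0.25, adjusted p = 0.948). The Irs2 call was held by 9 of 19 fits. It was lost in the fit of the 4 conditions together (adjusted p = 0.119) and on leaving out 1 of 9 of the 12 libraries, with an adjusted p of up to 0.176 without RNA-seq KO DMSO replicate 1.

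For Ccng2, whose mRNA rose most, the log2 change of TE was -0.14 (95% interval -1.12 to 0.85) in ctrl cells and -0.43 (95% interval -0.97 to 0.10, adjusted p = 0.226) in KO cells. Foxo3 had values of -0.37 and -0.20, Insr of -0.50 and -0.13, Irs1 of -0.45 and 0.07, and Igf1r of -0.14 and 0.17 in ctrl and KO cells. Their 95% intervals all included 0. In ctrl cells the widest of them, that of Irs1, ran from -1.45 to 0.55.

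The fourth question was whether these genes differed between KO and ctrl cells within a treatment. The libraries of a genotype are passages of its selected cells. Another difference between the ctrl and KO populations thus cannot be told apart from the loss of eIF4E3. With DMSO, 0 of the 7 transcripts were called for mRNA, for footprints or for TE by edgeR, DESeq2 called 0 as well, and none had an unadjusted p under 0.05 in edgeR. The calls over all transcripts were 0.0183% of 10924 for mRNA, 0.0279% of 10757 for footprints and 0% of 10475 for TE, where DESeq2 called 0. An unadjusted p under 0.05 in edgeR was found for 646, 850 and 426 of these transcripts. The log2 fold changes of mRNA, KO against ctrl, ran from 0.23 for Foxo3 to 0.43 for Irs1, and those of footprints from -0.15 for Irs1 to 0.58 for Ccng2. For mRNA these values moved with single libraries, and over all fits they ran from 0.19 to 0.78 for Irs1, from 0.14 to 0.68 for Insr and from 0.19 to 0.71 for Igf1r. Txnip mRNA was higher in each KO library with DMSO (14.2, 13.2 and 14.4 CPM against 12.7, 10.2 and 11.5 CPM), with a log2 fold change of 0.29 (SE 0.15, adjusted p = 0.683). The effect of KO in DMSO and the Torin1 effect in ctrl cells share the ctrl DMSO libraries.

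With Torin1, Txnip footprints passed the test between the genotypes. They were 1.58-fold higher in KO than in ctrl cells (95% interval 1.33 to 1.87, adjusted p = 4.60e-04), in 3 of 3 libraries, and the call held in each of 13 fits. Its mRNA was at 37.4, 31.1 and 30.2 CPM in ctrl and at 43.7, 52.4 and 37.5 CPM in KO cells with Torin1. The highest ctrl library was just below the lowest KO library, and the log2 fold change of 0.44 (SE 0.11) missed the threshold (adjusted p = 0.0627). It passed with DESeq2 (0.44, adjusted p = 0.0103), and over all 13 fits its adjusted p ran from 9.20e-04 to 0.475. The log2 difference of Txnip TE was 0.23 (95% interval -0.11 to 0.57, adjusted p = 0.514). Over all transcripts the calls were 6.03% of 10792 for footprints, 1.96% of 11007 for mRNA and 2.85% of 10509 for TE.

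For the other 6 genes in Torin1, the log2 differences between KO and ctrl ran from 0.05 for Foxo3 to 0.18 for Igf1r in mRNA and from -0.04 for Foxo3 to 0.34 for Igf1r in footprints. Of the 7 genes, 4 had an unadjusted p under 0.05 from edgeR for mRNA, 2 for footprints and 0 for TE. Over all transcripts, 1954 of 11007, 2187 of 10792 and 1776 of 10509 had such a value. DESeq2 called 1 for mRNA, Txnip, and 0 for TE. Irs2 and Ccng2 mRNA and Igf1r footprints were higher in each KO library with Torin1 than in each ctrl library. None of these was called by edgeR (adjusted p = 0.196, 0.243 and 0.193). The share of all transcripts separated in this way was not counted. For Irs2 mRNA the interval ran from 0.02 to 0.27, for Ccng2 mRNA from 0.01 to 0.33 and for Igf1r footprints from 0.03 to 0.65.

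**Figure D3:**
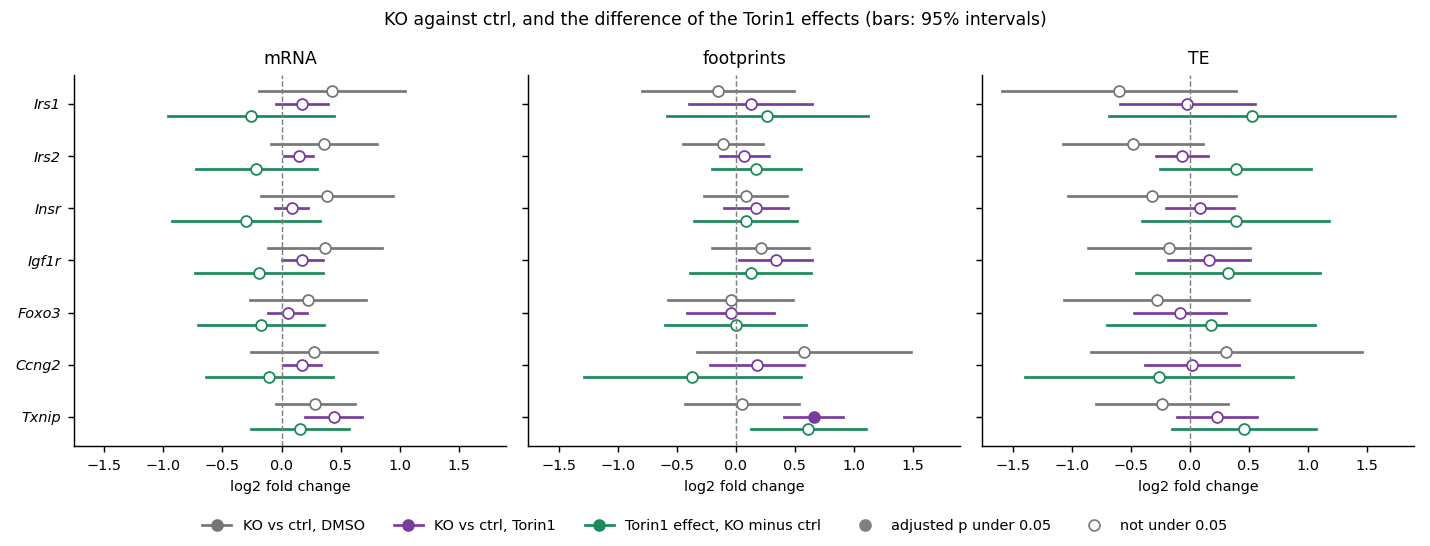
Log2 fold change of KO against ctrl with DMSO and with Torin1, and the difference between the Torin1 effects of KO and ctrl, for mRNA, footprints and TE, with 95% intervals from edgeR; a filled circle has an adjusted p under 0.05. The filled circle is Txnip footprints in Torin1, and most of the other intervals cross 0.

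Whether the response to Torin1 itself differed between the genotypes was tested as an interaction over the 4 conditions. None of the 7 genes passed for mRNA, footprints or TE, with edgeR or with DESeq2. For Txnip footprints the log2 difference of the responses was 0.62 (95% interval 0.13 to 1.10, unadjusted p = 0.0152 from edgeR, adjusted p = 0.542), the 1 member value with an unadjusted p under 0.05. The estimates for Txnip mRNA and TE had the same sign, at 0.16 (95% interval -0.26 to 0.57), and 0.46 (95% interval -0.15 to 1.07). The other 6 genes had mRNA differences from -0.30 for Insr to -0.10 for Ccng2 and footprint differences from -0.37 for Ccng2 to 0.27 for Irs1. Over all transcripts, the interaction called 0% of 11072 for mRNA, 0.114% of 10563 for footprints and 0% of 10376 for TE. Unadjusted p-values under 0.05 from edgeR numbered 108 for mRNA, 730 for footprints and 591 for TE, and DESeq2 called 0, 36 and 16.

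The rest of the pathway was followed in 6 lists of genes around the members. For mRNA the lists stayed near 0, with medians between -0.18 and 0.10 on the log2 scale in ctrl cells and between -0.15 and -0.02 in KO cells, and few genes of each passed. These counts stand beside the 2.73% of all transcripts called for mRNA in ctrl cells (2.05% higher) and the 9.97% in KO cells (6.23% higher). Among PI3K and AKT genes, 1 of 17 tested rose in ctrl cells, Pik3ip1, an inhibitor of the PI3K catalytic subunit (log2 fold change 1.21, adjusted p = 0.00319). In KO cells 2 of 17 rose, Pik3ip1 (1.30, adjusted p = 2.67e-04) and Pik3ca, the catalytic subunit p110 alpha (0.42, adjusted p = 0.0236).

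Of the FoxO family and its regulators, 1 of 19 rose in ctrl and 2 in KO cells. Sgk1, a kinase that phosphorylates FoxO3 at sites shared with AKT, rose by 1.42 in ctrl (adjusted p = 1.53e-04) and 1.16 in KO cells (adjusted p = 9.88e-06). Sirt1, a deacetylase of FoxO proteins, rose by 0.63 in KO cells (adjusted p = 0.00689). Foxo4, another FoxO factor, had values of 0.38 in ctrl (adjusted p = 0.152) and 0.32 in KO cells (adjusted p = 0.0681). In this list 1 gene fell in ctrl and 2 in KO cells, among them genes of the YWHA proteins, which bind phosphorylated FoxO. Ywhah had a log2 fold change of -0.43 in ctrl cells (adjusted p = 0.0486) and Ywhag of -0.40 in KO cells (adjusted p = 0.00361).

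Of 22 other FoxO targets tested, 3 rose and 0 fell in ctrl cells, and 3 rose and 2 fell in KO cells. The 3 that rose in both were Fbxo32, Gabarapl1 and Rictor. Fbxo32, the ubiquitin ligase atrogin-1, had the largest value of the lists at 3.30 in ctrl (adjusted p = 3.60e-04) and 3.21 in KO cells (adjusted p = 3.82e-04). Gabarapl1, an autophagy gene, rose by 0.55 (adjusted p = 0.0451) and 0.67 (adjusted p = 0.00128), and Rictor, a subunit of mTOR complex 2, by 1.13 (adjusted p = 0.0459) and 0.81 (adjusted p = 0.00403). The median over the FoxO targets was 1e-04 in ctrl cells, so that most of the list did not follow these 3 genes.

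Around Txnip, 1 of 10 genes of MondoA, alpha-arrestins and thioredoxin rose in ctrl cells and 2 in KO cells. Arrdc3, an alpha-arrestin like Txnip, had log2 fold changes of 1.21 (adjusted p = 0.0119) and 1.19 (adjusted p = 4.85e-04), and Arrdc2 rose by 0.64 in KO cells (adjusted p = 0.0334). In the list of insulin and IGF ligands, receptors and adaptors 0 of 10 passed for mRNA in either genotype, and in that of cyclin G relatives and PP2A B56 subunits 0 of 7.

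**Figure D4:**
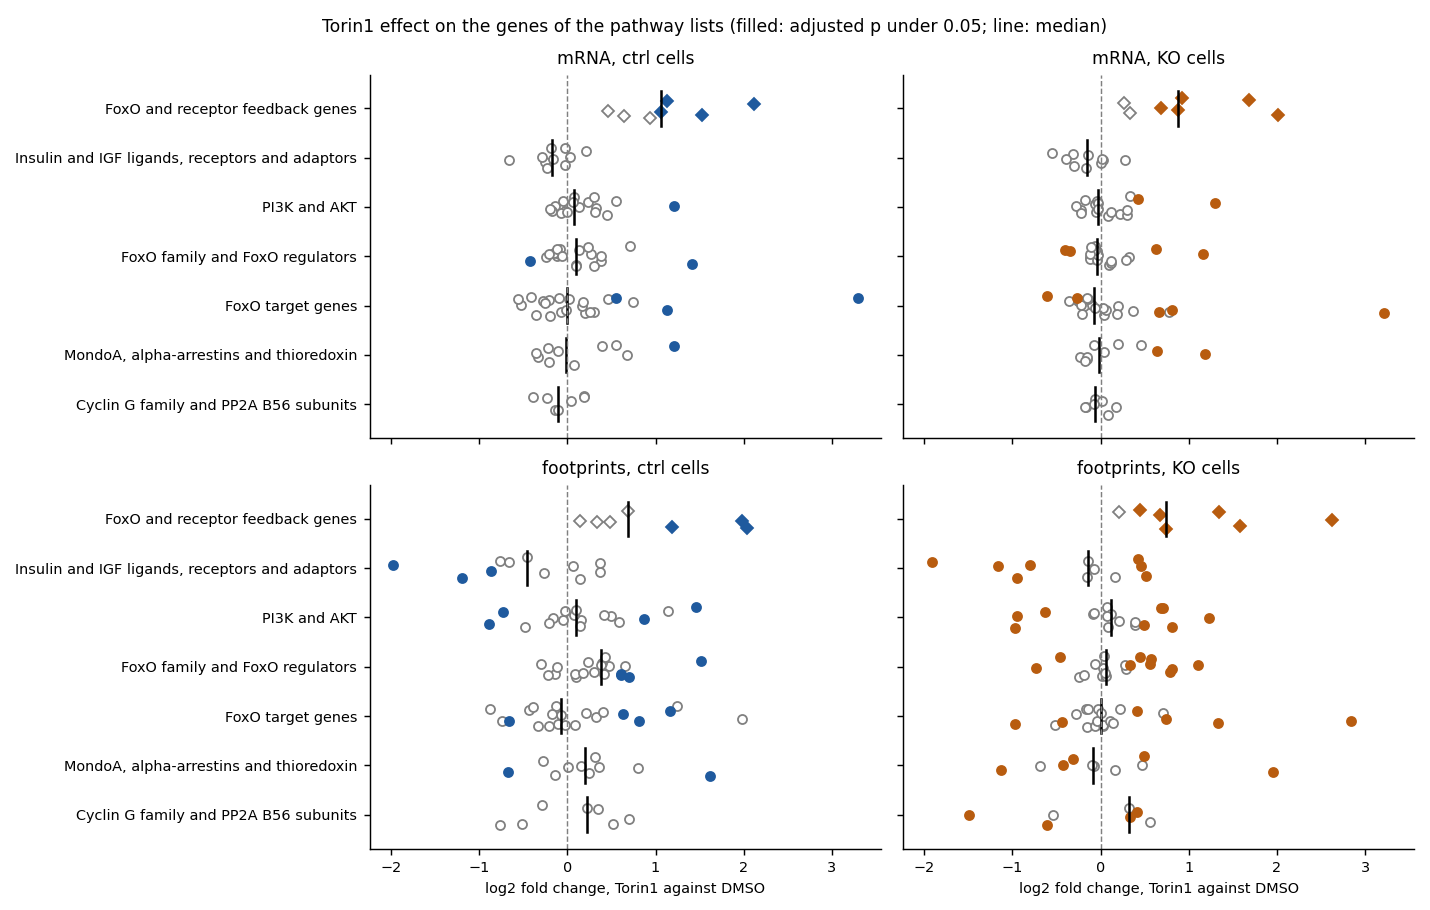
Log2 fold change of Torin1 against DMSO for mRNA and footprints in ctrl and KO cells, for the 7 genes (diamonds) and the genes of 6 pathway lists (circles); filled symbols have an adjusted p under 0.05, vertical lines are medians and the vertical scatter within a list has no meaning. The 7 genes all lie to the right of 0, while the lists spread to both sides.

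Footprints of the lists moved both ways, beside 15.6% of all transcripts called in ctrl cells and 40.6% in KO cells. Of 5 genes of IGF binding proteins in the lists 4 were tested, a set singled out after its values were seen, and 3 fell in both genotypes. Igfbp6 was at -1.19 in ctrl (adjusted p = 0.00595) and -1.91 in KO cells (adjusted p = 1.95e-06), Igfbp4 at -0.87 (adjusted p = 0.0287) and -0.95 (adjusted p = 1.08e-05), and Igfbp2 at -1.98 (adjusted p = 0.0081) and -1.16 (adjusted p = 0.0458). Igfbp5 had values of 0.37 (adjusted p = 0.671) and -0.15 (adjusted p = 0.748). The 3 were the calls among 11 genes of ligands, receptors and adaptors in ctrl cells, while in KO cells 3 rose and 4 fell, the other one being Enpp1, an inhibitor of the insulin receptor (-0.80, adjusted p = 1.64e-04).

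Of 17 PI3K and AKT genes, 2 rose and 2 fell in ctrl cells and 5 rose and 3 fell in KO cells. Pik3ip1 footprints rose by 1.46 (adjusted p = 0.00113) and 1.22 (adjusted p = 6.83e-05) and Pik3ca by 0.87 (adjusted p = 0.0352) and 0.71 (adjusted p = 9.66e-04). Pik3r2, a regulatory subunit, was at -0.97 in KO cells (adjusted p = 1.13e-04).

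Of 19 FoxO family and regulator genes, 4 rose and 0 fell in ctrl cells and 7 rose and 2 fell in KO cells. Sgk1 rose by 1.52 (adjusted p = 4.27e-04) and 1.11 (adjusted p = 1.86e-05). The acetyltransferases Ep300 and Crebbp, coactivators of FoxO, rose in KO cells by 0.81 (adjusted p = 1.31e-05) and 0.79 (adjusted p = 1.61e-05). In ctrl cells Usp7, a deubiquitinase of FoxO, rose by 0.70 (adjusted p = 0.00407) and the nuclear exporter Xpo1 by 0.61 (adjusted p = 0.00856).

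Of 21 FoxO targets, 3 of ctrl cells and 4 of KO cells rose in footprints, and 1 and 2 fell. Gabarapl1 rose by 1.16 (adjusted p = 0.00234) and 1.33 (adjusted p = 2.65e-08). Ccnd1, cyclin D1, which FoxO factors repress, fell by 0.66 in ctrl cells (adjusted p = 0.00556) and by 0.97 in KO cells (adjusted p = 6.26e-08). Rictor rose by 0.81 in ctrl cells (adjusted p = 0.0187) and Cdkn1b, the cell cycle inhibitor p27, by 0.74 in KO cells (adjusted p = 2.63e-05).

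Arrdc3 footprints rose by 1.61 in ctrl cells (adjusted p = 6.70e-04) and by 1.95 in KO cells (adjusted p = 2.89e-09), and were also higher in KO than in ctrl cells with Torin1 (0.89, SE 0.19, adjusted p = 0.00322), as Txnip was. In that comparison of genotypes 1 of 10 genes of the list was higher and 1 lower, with a median of -0.17, beside 6.03% of all transcripts called. Txn2, the mitochondrial thioredoxin, fell by 0.68 (adjusted p = 0.0183) and by 1.13 (adjusted p = 2.80e-08), and Txnrd1, a thioredoxin reductase, rose by 0.49 in KO cells (adjusted p = 3.71e-04). Of 10 genes in this list 1 rose and 1 fell in ctrl cells, and 2 rose and 3 fell in KO cells. Of 7 cyclin G relatives and PP2A B56 subunits none passed in ctrl cells, and 2 rose and 2 fell in KO cells, with Ccni (cyclin I) at -1.49 (adjusted p = 2.00e-04), Ppp2r5d at -0.61 (adjusted p = 7.94e-04) and Ppp2r5a at 0.41 (adjusted p = 0.0174).

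For TE no gene of the 6 lists passed in ctrl cells, where 4.68% of all transcripts did, against 28.4% in KO cells. In KO cells the calls went both ways in each list, from 6 rises and 2 falls of 19 among FoxO regulators to 2 rises and 3 falls of 10 among ligands, receptors and adaptors. TE of Crebbp rose by 0.67 (adjusted p = 0.00399), of Usp7 by 0.63 (adjusted p = 0.0014), of Xpo1 by 0.59 (adjusted p = 0.00145), of Cdkn1b by 0.70 (adjusted p = 0.001) and of Gabarapl1 by 0.67 (adjusted p = 0.00832). TE of Pik3r1, a regulatory subunit of PI3K, rose by 0.71 (adjusted p = 0.00303), and TE of the adaptor Grb2 by 0.63 (adjusted p = 6.81e-04). TE of Arrdc3 rose by 0.77 (adjusted p = 0.0434), Txnrd1 by 0.57 (adjusted p = 9.38e-04) and Ppp2r5a by 0.59 (adjusted p = 0.00779). Among the falls in TE were -1.65 for Ccni (adjusted p = 2.42e-05), -1.53 for Igfbp6 (adjusted p = 0.00288), -1.25 for Phlpp1, an AKT phosphatase (adjusted p = 1.43e-04), -1.07 for Enpp1 (adjusted p = 2.18e-05), -0.97 for Txn2 (adjusted p = 7.32e-05), -0.70 for Ccnd1 (adjusted p = 2.54e-04) and -0.54 for Ppp2r5d (adjusted p = 0.005). The lowest TE value among the FoxO regulators was -0.70.

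For the 6 members called for mRNA or footprints with Torin1, the transcripts with the most similar pattern were sought over the 8 condition means of log2 CPM, 4 for each assay, each centred on its own mean within the assay. Among 9182 transcripts the smallest root mean square difference from Txnip was that of Il6 (0.149) and Tcp11l2 (0.178), and from Ccng2 that of Plekho2 (0.211) and Klhl24 (0.256). For Irs2 the nearest were Zfp608 (0.0657) and Jmy (0.0794), for Irs1 Zfp740 (0.0592) and Zbtb39 (0.0637), for Foxo3 Pim1 (0.0439) and Map3k1 (0.0871), and for Igf1r Mbnl1 (0.0244) and Pbrm1 (0.0337). The median difference over all transcripts was 1.05 for Txnip and 1.12 for Ccng2, against 0.281 for Igf1r, whose own pattern was the flattest of the 6. The 8 points share libraries within each assay, and the differences are a description.

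The counted transcripts differ in structure. On GRCm38, with GENCODE M21, Txnip lies at chr3:96557960-96561857 on the plus strand with 8 exons, a 5′ TL of 276 nt and a CDS of 1191 nt. Ccng2 lies at chr5:93267257-93276231 on the plus strand with 8 exons, a 5′ TL of 541 nt with 3 upstream ATG triplets and a CDS of 1035 nt. Irs1 at chr1:82233101-82291416 and Irs2 at chr8:10984681-11008458, both on the minus strand, have 2 exons each and a CDS of 3696 and 3966 nt. Igf1r at chr7:67952827-68233668 on the plus strand and Insr at chr8:3150922-3279617 on the minus strand have 21 exons each and a CDS of 4110 and 4119 nt. Foxo3 lies at chr10:42181841-42276752 on the minus strand with 4 exons and a CDS of 2019 nt.

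Beside 10469 matched transcripts, whose median 5′ TL was 172 nt, Irs1 had a 5′ TL of 923 nt (percentile 98.6) with 5 upstream ATG triplets, Insr of 489 nt (percentile 91.0) and Foxo3 of 339 nt (percentile 80.0). Irs2 and Igf1r had annotated leaders of 28 and 32 nt, but their RefSeq starts lie 471 and 570 bases further upstream, so that these 2 lengths depend on the annotation. The 5′ TL of Txnip had no upstream ATG and a GC content of 46.0% (percentile 3.0, median of all transcripts 65.2%). The 3′ UTRs of Irs1, Insr, Igf1r and Foxo3 were 4525, 4747, 7267 and 4490 nt long, with that of Igf1r at percentile 99.0 of all transcripts, while those of Ccng2 and Txnip had 1234 and 1328 nt.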

How the data were processed

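N2a cells of 4 conditions (ctrl or KO, DMSO or Torin1) were measured by RNA-seq (12 libraries) and ribosome profiling (11 libraries; ctrl DMSO replicate 2 was not analysed here, and the study states that an outlier of this condition was discarded). The authors aligned reads to mm10 (HISAT2) and then to canonical transcripts of Ensembl (bowtie2). They deposited raw counts per CDS, which are reads for RNA-seq and riboWaltz P-sites for footprints, in 8 tables of 1 pair of conditions each. The submitters' processing notes also name cutadapt and edgeR. The tables hold the authors' own fold changes and p-values as well, and 2 further tables their TE from RiboDiff. These were not used. One table (RNA-seq, DMSO, both genotypes) repeats a replicate number in its header. Those columns were used without a number, and the block of that comparison took the same libraries from the other tables.

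From the deposited counts, each pair was tested with edgeR 4.0.16 in R 4.3.3 (TMM, quasi-likelihood F-test, Benjamini-Hochberg adjustment over all transcripts tested, threshold 0.05), with a filter that kept a transcript if its CPM was over 1 throughout 1 condition. TE was the interaction of assay and condition in one model, and genotype by Torin1 was tested over the 4 conditions. Depth and CPM levels come from transcripts that the 4 tables of an assay share, with RPKM computed from these CPM and the GENCODE M21 CDS length. No 2 libraries of a group had the same counts (chi-square per degree of freedom 1.88 to 59.5), so each was counted as a replicate. The pairs of RNA-seq ctrl DMSO libraries had the largest values, 39.2, 46.5 and 59.5, and no other pair was above 23.4. Intervals and limits cover these libraries and counting error alone. The labels say that replicates are different passages, so that p-values measure the spread between passages. The fits were tested on simulated data. Alternatives were a replicate block, RLE or no scaling, DESeq2 1.42.0, no filter, the 4 conditions in one fit and leaving out each library.

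The members, the 6 gene lists and the marker lists were chosen with earlier results of these data known. The text names every member, Eif4e3, up to 3 called genes with the smallest adjusted p of each list, Torin1 comparison and measure, and the 2 transcripts nearest in pattern to each called member. Values of such a gene in other comparisons were added after they were seen. Foxo4 and Igfbp5 were given outside this rule. One gene that this rule names is not reported here.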

Additional observations from a re-analysis of the deposited data

How the results depend on the processing

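The number of the 7 genes called was within 1.5 times of the reported one in all but a few alternatives. DESeq2 gave 1 in place of 0 for the effect of KO on mRNA in Torin1, and the fit of the 4 conditions together gave 1 in place of 2 for TE with Torin1 in KO cells. Leaving out a library in turn gave 2 to 7 for mRNA with Torin1 in ctrl cells and 1 to 2 for TE with Torin1 in KO cells. In the comparisons where a gene was called by any fit, its direction did not change. Some values that no fit called did change sign. With library size as the only scaling, the median over all transcripts of the footprint log2 fold changes moved to 0.23 in ctrl and 0.265 in KO cells, that of TE to 0.163 and 0.239, and the share of footprint calls that were higher went from 36.4% to 71.2% and from 45.5% to 71.1%. For TE this share went from 8.20% to 36.0% in ctrl and from 37.4% to 69.4% in KO cells. Insr footprints in KO cells passed there (0.46, adjusted p = 0.0033), and so did Foxo3 footprints in ctrl cells (0.90, adjusted p = 0.0106), where RLE gave 0.70 (adjusted p = 0.0496). The counts over all transcripts moved by more than 1.5 times in several fits. For mRNA with Torin1 in ctrl cells, 299 became 1328 with the replicate block, 723 with DESeq2, 1221 with the 4 conditions together and 114 to 1465 on leaving out a library, and in KO cells 1097 became 1797 with the block, 557 with the 4 conditions together and 438 to 1465. For the effect of KO on mRNA, 2 became 866, 21 and 19 in DMSO with the block, DESeq2 and the 4 conditions together and 0 to 10 on leaving out a library, and 216 became 1041, 342 and 6 in Torin1 and 6 to 174 on leaving out a library. For footprints with Torin1 in ctrl cells, 1670 became 958 with DESeq2 and 725 to 2291 on leaving out a library. For the effect of KO on footprints in Torin1, 651 became 424 with DESeq2, 411 with the 4 conditions together and 343 to 512 on leaving out a library. For TE with Torin1 in ctrl cells, 488 became 846 with the 4 conditions together and 316 to 820 on leaving out a library, and for the effect of KO on TE in Torin1 299 became 541 with the block, 507 with DESeq2, 72 with the 4 conditions together and 178 to 312 on leaving out a library. The interaction on footprints had 12 calls, with 35 in the block, 36 with DESeq2 and 0 to 50 on leaving out a library. The cause of these changes was not tested. The depth of ctrl DMSO replicate 3 limits what the footprints of Ccng2 and Irs1 can show.

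The labels do not say that the same replicate number is the same passage in different conditions. The deviations of same-numbered libraries from their group means correlated by 0.0276 to 0.692 in RNA-seq and by -0.0379 to 0.143 in ribosome profiling. Not every pair was over 0.1. Between DMSO and Torin1 the mRNA range in ctrl cells was 0.0569 to 0.206, against -0.229 to 0.0491 for libraries of different number. In KO cells it was 0.147 to 0.218 against -0.144 to -0.0414. The ranges were also separate for ctrl footprints between DMSO and Torin1, and overlapped in the other pairs of conditions. Since the labels give no match of passages, the main fits take the libraries to share a number only. With a replicate block, 7 of the 7 genes passed in place of 4 for mRNA with Torin1 in ctrl cells, beside 1328 of 10958 transcripts. In KO cells 7 passed in place of 5, beside 1797 of 11004. For the effect of KO on mRNA in DMSO, 3 passed in place of 0 (Irs2, Insr and Igf1r), beside 866 of 10924. For that in Torin1, 1 passed in place of 0 (Txnip), beside 1041 of 11007. No other call of the 7 genes changed.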
